A study of Gallus gallus with 15 samples.

Results

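Short fasting of the chick and its effect on abdominal fat were described here across all genes on the array, with most room given to groups outside the lipid, glucose, insulin and protein breakdown pathways already known to respond. The members are 10 of the 15 arrays of the study, and they were chosen by title: 5 from chicks fasted for 5 hours and 5 from chicks fed ad libitum. All were male broilers of 16 to 17 days, and both groups received normal porcine serum as a vehicle. The remaining 5 arrays came from fed chicks whose insulin was neutralized by injected porcine antibody serum at 0, 2 and 4 hours. In the model they served only to estimate the spread. They also counted in the filter on low values and in picking the brightest probe set of each gene, the one with the highest mean over all 15 arrays. Their levels are given for GJB1 and DUSP5. Each array is labelled as a biological replicate and is called a bird here. Fat is a mixture of cells, so fewer cells of a type and less RNA per cell cannot be told apart in any value given here.

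In birds as in mammals, adipocytes store triacylglycerol when feed is available and release fatty acids when it is withdrawn. Chicken adipose tissue makes little of its own fatty acid, because most lipogenesis in birds is in the liver. The tissue also holds preadipocytes, vessels and immune cells, and in young broilers it is still growing through cell division and differentiation.

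Fasting changed 1794 of the 18612 probe sets that passed the filter on low values (adjusted p from limma under 0.05, with Benjamini-Hochberg adjustment over all of them). In fasted birds 921 were higher, which is 4.95% of those tested, and 873 were lower, which is 4.69%. Rises were larger than falls: called probe sets that rose had a median change of 1.81-fold, and 353 rose by 2-fold or more, while those that fell had a median change of 1.53-fold, and 150 fell by 2-fold or more. Without overlap between the 5 fasted and the 5 fed values were 1561 probe sets, or 8.39% of those tested. The background holds for single genes too, since 4.93% of the 9243 named genes were higher and 5.77% were lower when each gene was read from its brightest probe set. The median gene differed by -0.05 on the log2 scale (fasted minus fed). Fasted bird 4 weighed most on the counts, which were 618 higher and 562 lower without it.

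**Figure D1:**
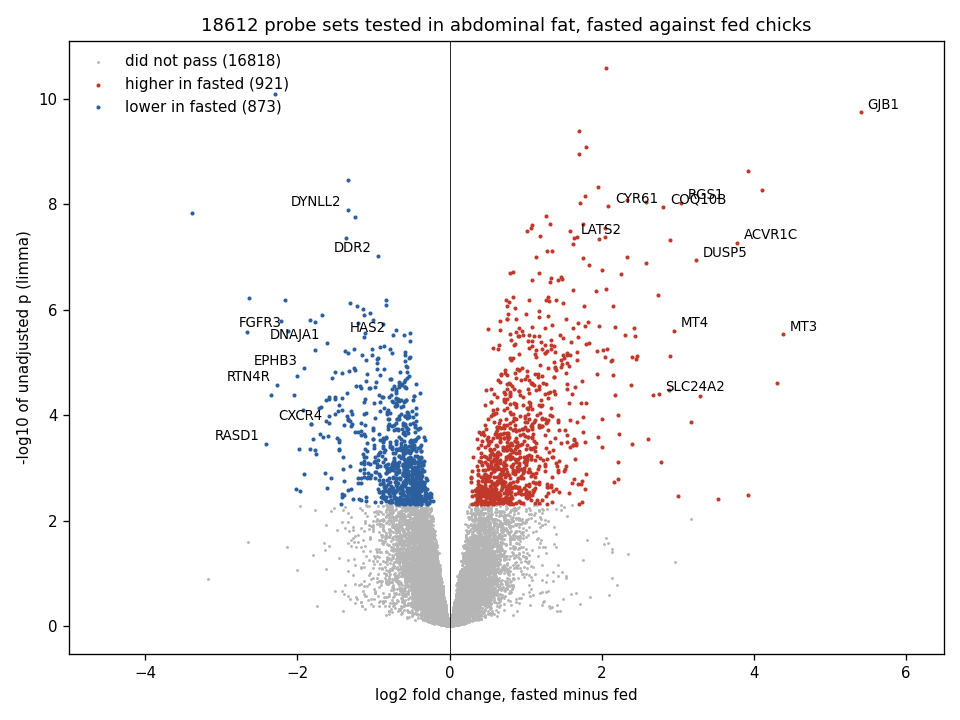
Log2 fold change (fasted minus fed, horizontal axis) against the unadjusted p of limma (-log10, vertical axis) for the 18612 probe sets. Red points are the 921 higher and blue points the 873 lower probe sets, and GJB1 lies farthest to the right.

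All 8 adipocyte markers passed the filter, as did all 7 macrophage markers on the array and all 4 mesothelial ones. The summed adipocyte level was 17.28 to 17.56 in fasted and 17.27 to 17.63 in fed birds. PPARG and CEBPA, both adipocyte regulators, were lower in fasted birds. Of 13 marker lists 2 had summed levels that did not overlap. The muscle list was at 9.37 to 9.76 in fasted and 9.79 to 11.21 in fed birds, with 3 of 10 markers passing the filter, ACTA1 called lower, and MYLPF and PVALB under 3 on all arrays. The nerve list was at 11.80 to 12.27 in fasted and 10.53 to 11.54 in fed birds and rested on MBP, with S100B and GAP43 under 3 on all arrays. Fasted bird 5 stood apart from the other fasted and the fed birds in liver transcripts: ALB was 15.59 in it, 3.31 to 8.26 in the other fasted birds and 4.50 to 7.85 in fed birds. FGB, FGA, TTR and APOH were 12.56, 10.34, 13.14 and 10.49 in fasted bird 5, and no other fasted or fed bird was above 6.11 for any of them. TF and CYP2C18, the other liver markers on the array, did not stand out in this bird. TF was 14.07 in it and 14.14 to 15.36 in the other fasted birds, and CYP2C18 was 9.67 and 6.89 to 12.69. Without fasted bird 5 there were 813 probe sets higher and 685 lower. GJB1, which liver also expresses, was 12.25 in fasted bird 5 and 12.35 to 13.17 in the other fasted birds. It was 13.12 in fasted bird 2, the highest of the fasted birds for TF and CYP2C18. Fed bird 4 was the highest of the fasted and fed birds for both, with TF at 15.84 and CYP2C18 at 13.01, and GJB1 was 8.0 in it. Whether liver transcripts enter the level of GJB1 was not tested. Lung and airway markers varied widely in both groups, with SFTPA1 at 12.43 to 15.01 in fasted and 10.32 to 14.96 in fed birds and EPCAM at 9.33 to 13.34 in fasted and 6.60 to 13.25 in fed birds. The mesothelial sum was 11.39 to 13.76 in fasted and 11.52 to 14.21 in fed birds. In the endothelial list CDH5 was called higher and the sums overlapped. The part of these cells in the results was not tested. Fed birds 4 and 5 stood apart, with mean correlations to the other arrays of 0.955 and 0.958 (0.963 to 0.977 for the rest), and without them 863 probe sets were higher and 804 lower.

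Calls fell at all levels of expression but not evenly. There were 3357 probe sets with a fed mean under 5, close to the floor of the log2 scale. Of these, 104 were higher in fasted birds (3.1%) and 20 lower (0.596%). Of the 2612 with a fed mean of 11 or more, 155 were higher (5.93%) and 235 lower (9.0%). The shares over all probe sets were 4.95% and 4.69%. The fed mean is part of the difference, so low fed means favour rises and high ones favour falls. Levels near the floor also leave little room to fall, so no result is read from this tilt. Of 630 genes with several measured probe sets and at least 1 call, 388 had 1 called probe set only, 240 had 2 or more called one way and none the other way, and 2 genes, TUBD1 and FAM69B, had calls in both directions. Because its probe sets disagree, TUBD1, the gene of delta tubulin, is given no direction here. Of the called probe sets, 312 had no single gene symbol in the annotation used and are counted but not described.

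Calls were frequent in the pathways for which short fasting is known, but those pathways hold few genes. Of the 456 named genes that were higher in fasted birds, 58, or 12.7%, belonged to 8 lists of lipid, sterol, glucose, amino acid, protein breakdown and insulin or PPAR genes. Of the 533 that were lower, 62, or 11.6%, did. These lists held 363, or 3.93%, of the named genes measured, and 16.0% of their members were higher and 17.1% lower. Another 164 higher and 135 lower genes belonged to 26 further lists, described below by function. A further 9 higher and 40 lower genes were only in 4 lists written after values were seen, and 225 higher and 296 lower genes were in none. These lists were written with earlier results of the same birds known, so a share above the background is a description and not independent evidence.

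GJB1, which encodes a connexin of gap junctions, had the largest rise of all named genes outside the known lists. Its log2 level was 12.35, 13.12, 12.82, 13.17 and 12.25 in fasted birds 1 to 5, against 6.30, 7.17, 7.12, 8.0 and 8.07 in fed birds 1 to 5. Every fasted bird lay more than 4 log2 units above every fed bird, and the change was 42.5-fold (log2 5.41, SE 0.34, adjusted p = 1.11e-06). It was 8.78 ± 0.50 in insulin-neutralized birds (SD, n = 5).

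MT3 and MT4, metallothionein genes that are neighbours in the genome, both rose. Metallothioneins bind zinc and copper inside the cell. MT4 reached 13.72, 14.81, 13.92, 14.07 and 14.05 in fasted birds 1 to 5, against 10.06, 10.43, 11.30, 12.41 and 11.63 in fed birds 1 to 5 (7.72-fold, adjusted p = 0.000399). MT3 rose 20.8-fold (adjusted p = 0.000436), and for both genes fasted bird 2 was the highest bird and fed birds 4 and 5 were the highest of the fed. SLC30A1, the zinc exporter of the plasma membrane, was 3.89-fold higher (adjusted p = 2.5e-05), while SLC30A5, which loads zinc into the secretory pathway, was 1.36-fold lower (adjusted p = 0.00816). In a list of 27 metallothioneins and zinc transporters, written after values were seen, 15 were measured, with a median difference of 0.02. Of these 15, 3 rose, beside 4.93% of all named genes, and 1 fell (6.67%, beside 5.77%), a share near the background. The other 11 did not pass.

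Signalling genes among the 15 largest rises were DUSP5, RGS1, ACVR1C and MAPK4. DUSP5, a nuclear phosphatase of ERK, was at 11.10, 10.50, 10.89, 11.38 and 10.91 in fasted birds, against 7.67, 7.08, 7.61, 7.77 and 8.46 in fed birds (9.42-fold, adjusted p = 4.82e-05). RGS1, which speeds the shut-off of G proteins, was at 6.77, 7.40, 7.64, 7.70 and 6.73 in fasted birds, against 3.87, 4.34, 4.40, 3.85 and 4.60 in fed birds (8.22-fold, adjusted p = 1.19e-05). Neither gene overlapped between the groups, and the level of DUSP5 in insulin-neutralized birds was 7.71 ± 0.77 (SD, n = 5). ACVR1C, the type I receptor ALK7 of activins, rose 13.8-fold (adjusted p = 2.74e-05). MAPK4, an atypical MAP kinase, rose 6.0-fold by the largest of its 3 probe sets (adjusted p = 5.29e-05), and all 3 were called.

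The other genes among the 15 largest rises by the naming rule were PRXL2A, C8orf22, NARF, COQ10B, SLC24A2, AOX1, TTC3 and SLC15A1. They were between 6.09-fold and 7.47-fold higher, and all were without overlap between groups. PRXL2A was called by 1 of its 2 probe sets, and NARF and TTC3 each by 3 of 4. SLC24A2, a potassium-dependent sodium and calcium exchanger, had the widest spread among fasted birds: its levels were 6.15, 8.65, 6.05, 8.60 and 7.95 in fasted birds, against 4.48, 4.95, 4.82, 4.48 and 4.92 in fed birds. Fasted birds 1 and 3 were little more than 1 log2 unit above the highest fed bird. AOX1, an aldehyde oxidase, and PRXL2A, a peroxiredoxin-like protein, had fed means of 3.27 and 3.56, under 4 and close to the floor, so their folds are best read as lower bounds.

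**Figure D2:**
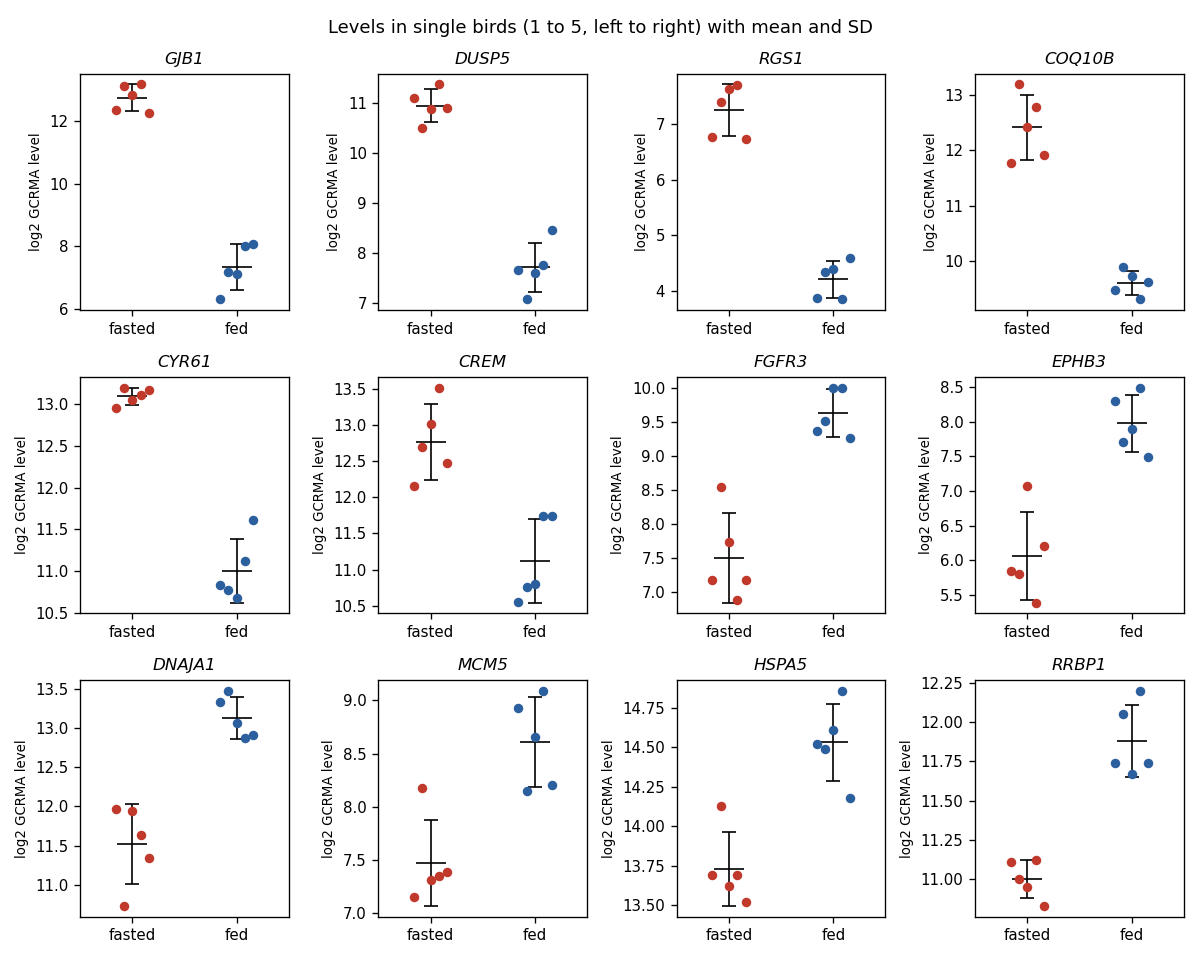
Log2 GCRMA level of 12 genes in each bird, fasted left and fed right, with the group mean and SD (n = 5 each); the vertical axis of each panel has its own range and does not start at 0. In all panels but MCM5 the 2 groups are apart.

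The 15 largest falls by the same rule included the cell surface receptors FGFR3, EPHB3, RTN4R and CXCR4. FGFR3, a receptor tyrosine kinase for fibroblast growth factors, was at 7.19, 8.55, 7.74, 6.89 and 7.18 in fasted birds, against 9.36, 9.51, 9.99, 10 and 9.26 in fed birds (4.34-fold lower, adjusted p = 0.000399), and all 3 of its probe sets were lower. EPHB3, an ephrin receptor, was at 5.85, 5.8, 7.07, 5.39 and 6.20 in fasted birds, against 8.30, 7.70, 7.89, 8.49 and 7.49 in fed birds (3.76-fold lower, adjusted p = 0.00107). The groups did not overlap for either gene, and fasted bird 2 for FGFR3 and fasted bird 3 for EPHB3 lay nearest to the fed birds. RTN4R, the Nogo receptor, was 4.83-fold lower (adjusted p = 0.00172), with a fasted mean of 3.76 that makes this a lower bound. CXCR4, the receptor of the chemokine CXCL12, was at 8.72, 7.75, 8.18, 7.38 and 7.21 in fasted birds, against 9.22, 9.49, 9.75, 9.18 and 9.48 in fed birds (2.98-fold lower, adjusted p = 0.0052).

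RASD1, a small GTPase of the Ras family that glucocorticoids induce in mammals, had the largest fall of the 15. It was at 6.44, 4.17, 6.96, 6.96 and 6.19 in fasted birds, against 8.46, 7.90, 8.56, 8.60 and 9.24 in fed birds (5.30-fold lower, adjusted p = 0.00937). Fasted bird 2 was far under the others, and the call was lost without fed birds 4 and 5 (adjusted p = 0.0517). IDI2, CAMK1G, SELENOOL, PTP4A3, ADAMTS15, DNAJA1, TSPAN18, PRCP and PRRX2 were also among the 15 and were between 2.84-fold and 4.10-fold lower. CAMK1G was called by 1 of its 2 probe sets only. IDI2 is the symbol under which the annotation holds the chicken isomerase of isoprenoid synthesis, a step that feeds sterol synthesis. This symbol was not in the known sterol list, so its fall is not counted there but belongs with that pathway. PTP4A3 encodes a phosphatase. The rule also took COL1A2, a chain of type I collagen, of which only 1 of 6 probe sets was called lower, at a fasted mean of 4.70 against a fed mean of 6.37, so no direction is given for the gene. TSPAN18, a tetraspanin, lost its call in 6 of 15 fits that each left out 1 bird (adjusted p = 0.0712 without fasted bird 2), and ADAMTS15, a secreted protease, in 1 (adjusted p = 0.0516 without fasted bird 5).

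The DNA replication genes that changed were all lower. Replication starts when the origin recognition complex and CDT1 load the ring of MCM proteins on DNA, and GINS joins the ring to form the active helicase. In a list of 71 such genes, written after values were seen, 54 were measured, 14 were lower (25.9%, beside 5.77% of all named genes), 0 were higher and 40 did not pass. The median difference of the list was -0.32, beside -0.05 over all named genes.

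The origin genes carried most of these calls. In the licensing and helicase role 10 of 23 were lower (43.5%, beside 5.77% of all named genes). They included ORC6 (2.55-fold), MCM6 (2.15-fold, adjusted p = 0.00253), MCM2 (1.94-fold, adjusted p = 0.00109), GINS1 (1.75-fold) and GINS3 (1.44-fold). HMCES is counted among the 10, although it neither licenses origins nor belongs to the helicase. MCM5 was at 7.15, 8.18, 7.31, 7.35 and 7.39 in fasted birds, against 8.93, 8.15, 8.66, 9.09 and 8.21 in fed birds (2.20-fold lower, adjusted p = 0.00713). Fasted bird 2 alone reached the fed range, and the other 4 fasted birds lay under all fed birds. E2F1, a transcription factor that turns on S phase genes, was 1.63-fold lower (adjusted p = 0.0022), and POLE2, a subunit of DNA polymerase epsilon, 1.47-fold lower. PCNA, the sliding clamp, was 1.25-fold lower and did not pass (adjusted p = 0.0699). Of the 14 calls, 9 were kept in all 15 fits that left out 1 bird. MCM3 was among those lost (adjusted p = 0.0649 without fasted bird 4), as were CDT1, POLE3, LRWD1 and HMCES. In the separate list of DNA repair and nucleotide supply, 9 of 116 were lower (7.76%) and 4 higher (3.45%), shares near those of all named genes, 5.77% and 4.93%, with RRM2B, a ribonucleotide reductase subunit, 1.64-fold lower.

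Where genes of early secretory traffic changed, nearly all were lower. COPII coats carry cargo from the endoplasmic reticulum to the Golgi, COPI coats carry it back, and the TRAPP complex tethers the vesicles. Of 72 measured genes in this role 16 were lower (22.2%, beside 5.77% of all named genes) and 1, GOLM1, was higher (1.39%, beside 4.93%). Their median difference was -0.21. The changes were small: COPII proteins SEC24D and SEC31A were 1.51-fold and 1.38-fold lower (adjusted p = 0.0016 and 0.00977), and COPI proteins ARCN1 and COPG2 were 1.37-fold and 1.31-fold lower (adjusted p = 0.00868 and 0.0104). RRBP1, which binds ribosomes to the endoplasmic reticulum, was at 11.11, 11, 10.95, 11.12 and 10.83 in fasted birds, against 11.74, 12.05, 11.67, 12.20 and 11.74 in fed birds (1.84-fold lower, adjusted p = 0.000343). Every fasted bird lay under every fed bird, and both probe sets of the gene were called.

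TRAPPC3, a subunit of TRAPP, was 1.56-fold lower, and YIPF5, BET1 and SEC22B were between 1.48-fold and 1.51-fold lower. SEC61A1, the channel through which new proteins enter the endoplasmic reticulum, was 1.30-fold lower (adjusted p = 0.0159), while SEC61B differed by -0.02 by its brightest probe set and did not pass (adjusted p = 0.88), with 1 of its 4 probe sets called. In the sorting and fusion role the directions were mixed, with 5 of 58 higher (8.62%, beside 4.93% of all named genes) and 6 lower (10.3%, beside 5.77%). Those higher included VAPA, SNX9 and ZFYVE26, the last pair 2.62-fold. Over the whole list of 130 measured genes 22 were lower (16.9%) and 6 higher (4.62%). In the 15 fits that left out 1 bird, 15 of the 22 kept their call in all. COPB2 was among those lost (adjusted p = 0.0729 without fasted bird 4), with COPE, SEC61G, SURF4, NSF, SNX10 and SCAMP2. Without fed birds 4 and 5, 16 of the 22 were still called. The count of lower members was 9 with only the 10 fasted and fed arrays in the fit and 1 against a fold of 1.2. It was 26 with another moderation of the variance.

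Chaperones that changed were mostly lower. DNAJA1, a J protein that works with HSP70 in the cytosol, was at 11.97, 10.73, 11.94, 11.64 and 11.34 in fasted birds, against 13.34, 13.48, 13.07, 12.87 and 12.91 in fed birds (3.06-fold lower, adjusted p = 0.000538). These DNAJA1 values are from the probe set with its largest change. By its brightest probe set, which the list count uses, the log2 difference was -1.23. HSPA5, the main HSP70 of the endoplasmic reticulum, was at 13.69, 14.13, 13.62, 13.69 and 13.52 in fasted birds, against 14.52, 14.49, 14.61, 14.86 and 14.18 in fed birds (1.75-fold lower, adjusted p = 0.00239). Neither gene overlapped, although fasted bird 2 lay just under fed bird 5 for HSPA5. In a list of 91 chaperones, written after values were seen, 81 were measured, with a median difference of -0.19. Of these, 13 were lower (16.0%, beside 5.77% of all named genes) and 3 higher (3.7%, beside 4.93%). AHSA1 and FKBP4, cochaperones of HSP90, were 1.48-fold and 1.35-fold lower (adjusted p = 0.00106 and 0.00499). FKBP5, another HSP90 cochaperone, which glucocorticoids induce in mammals, went the other way and was 2.43-fold higher (adjusted p = 0.00504). HSPA8, the constitutive cytosolic HSP70, was at 14.21 in fasted and 14.31 in fed birds (means) and did not pass. The 6 of these 13 calls kept in all 15 fits were those of AHSA1, DNAJA1, DNAJC9, FKBP4, HSPA5 and HYOU1, and HSPD1, a mitochondrial chaperonin, was among those lost (adjusted p = 0.0885 without fasted bird 4).

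**Figure D3:**
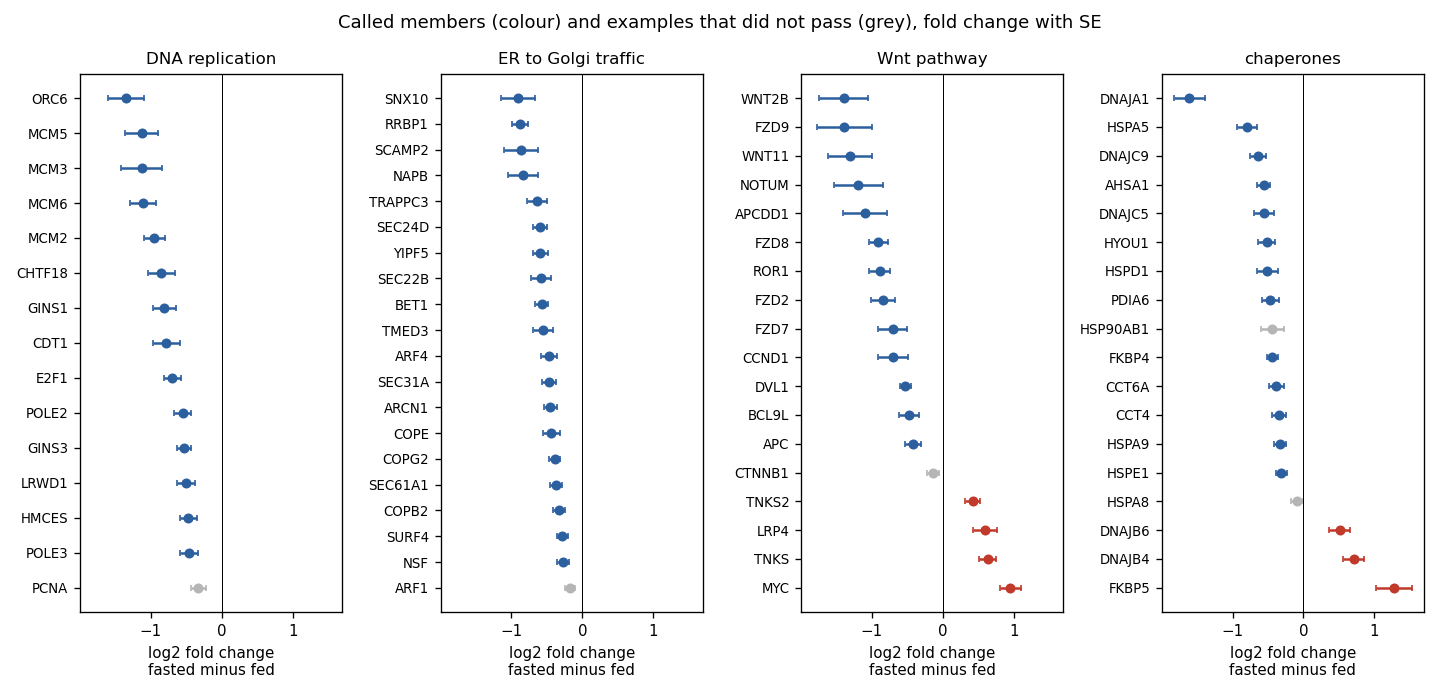
Log2 fold change (fasted minus fed, horizontal axis, bars are SE) of members of 4 lists, chosen after values were seen. Blue members were lower and red members higher at an adjusted p under 0.05, and grey members did not pass. The replication list had no higher member. The ER to Golgi panel leaves out the 6 higher members of its list, so it has no red point either. DNAJA1 is drawn from the probe set with its largest change and not from its brightest.

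Wnt genes that changed were mostly lower, at several levels of the pathway. Wnt ligands bind Frizzled receptors and act through Dishevelled, and in mammals they hold preadipocytes back from differentiation. A list of 104 such genes, written after values were seen, had 58 measured, and its median difference was -0.15. Of these, 13 were lower (22.4%, beside 5.77% of all named genes) and 4 higher (6.9%, beside 4.93%). The 13 include NOTUM, APCDD1 and APC, which restrain the pathway, so no direction of Wnt signalling is read from the count. WNT2B was at 5.55, 5.52, 5.55, 5.62 and 5.71 in fasted birds, against 5.78, 6.93, 7.0, 7.35 and 7.88 in fed birds (2.64-fold lower, adjusted p = 0.019), and fed bird 1 was close to the fasted birds. WNT11 was 2.47-fold lower, with a fasted mean of 3.78 near the floor. The receptors FZD8 (1.88-fold, adjusted p = 0.000595), FZD2 (1.79-fold) and ROR1 (1.85-fold, adjusted p = 0.00243) and the Dishevelled gene DVL1 (1.45-fold, adjusted p = 0.000764) were also lower. CTNNB1, which encodes beta-catenin, differed by -0.14 and did not pass (adjusted p = 0.305), and MYC was 1.93-fold higher (adjusted p = 0.00107). Of the 13 calls 7 were kept in all 15 fits, and 4 were still called without fed birds 4 and 5. FZD9, NOTUM, APCDD1, FZD7, BCL9L and CCND1 lost theirs in at least 1 of the 15, FZD9 in 9 of them (adjusted p = 0.0775 without fed bird 5).

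In the list of bZIP factors and CREB partners, genes that changed nearly all rose. CREB and its relatives are bZIP proteins that bind cAMP response elements, the salt-inducible kinases restrain their coactivators, and anchoring proteins hold protein kinase A in place. Of 37 measured genes 11 were higher (29.7%) and 1 lower, beside 4.93% and 5.77% of all named genes, and the median difference was 0.04, since 25 did not pass. Of 22 bZIP factors, which include some that are not relatives of CREB, such as MAFF, 5 were higher (22.7%). CEBPA, also a bZIP factor, was counted in a known list and not in this one, and it was lower. Of 15 CREB partners, salt-inducible kinases and anchoring proteins 6 were higher (40.0%) and 1 lower (6.67%). CREM, a cAMP-responsive modulator, was at 12.15, 12.70, 13.01, 13.52 and 12.47 in fasted birds, against 10.55, 10.76, 10.80, 11.74 and 11.74 in fed birds (3.14-fold, adjusted p = 0.00184). The groups were apart, with fed birds 4 and 5 nearest to the fasted. MAFF, a small Maf protein, rose 4.01-fold (adjusted p = 7.01e-05) and CREBRF, a regulator of a CREB3-type factor, 2.07-fold (adjusted p = 0.000176).

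The 3 salt-inducible kinases were all higher. SIK1 was at 13.93, 13.48, 13.92, 14.04 and 13.84 in fasted birds, against 13.28, 13.03, 12.76, 12.22 and 13.14 in fed birds (1.94-fold, adjusted p = 0.00617). SIK2 was 1.81-fold higher (adjusted p = 0.00122), and SIK3, whose groups overlapped, 1.74-fold (adjusted p = 0.0146). The anchoring proteins AKAP7 and AKAP9 were 2.59-fold and 2.03-fold higher, while AKAP8L was 1.62-fold lower and AKAP12 differed by 0.12 without passing. ATF4, the bZIP factor of the amino acid response, had means of 14.01 in fasted and 14.02 in fed birds. Of the 11 rises, 10 were kept in all 15 fits that left out 1 bird and 10 without fed birds 4 and 5.

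Hippo pathway genes that rose were few but among the clearest of the experiment. LATS kinases phosphorylate the coactivator YAP, whose targets include the matrix proteins CYR61 and CCN2. CYR61 was at 12.95, 13.20, 13.05, 13.11 and 13.17 in fasted birds, against 10.83, 10.77, 10.67, 11.12 and 11.61 in fed birds (4.27-fold, adjusted p = 1.21e-05). LATS2 was at 10.22, 9.72, 10.53, 10.26 and 10.20 in fasted birds, against 8.54, 8.28, 8.65, 8.39 and 8.85 in fed birds (3.12-fold, adjusted p = 2.42e-05). Both a kinase that restrains YAP and a target of YAP were thus higher, with no overlap between birds. CCN2 rose 2.77-fold and WWC3 1.89-fold, and all 4 rises were kept in all 15 fits. Of 29 measured genes these 4 (13.8%) were higher, beside 4.93% of all named genes, and 2 (6.9%, beside 5.77%) were lower, LIMD1 and STK38, and both calls were lost when 1 bird was left out (adjusted p = 0.0808 without fed bird 4 for LIMD1 and 0.0677 without fasted bird 4 for STK38).

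Several genes of cofactor metabolism changed. NAMPTP1, the symbol under which the annotation holds the chicken gene of nicotinamide phosphoribosyltransferase, an enzyme of NAD salvage, was at 11.12, 12.44, 11.41, 12.10 and 10.63 in fasted birds, against 9.40, 9.87, 9.85, 9.48 and 8.99 in fed birds (4.06-fold, adjusted p = 0.000635). CD38, an enzyme that splits NAD, was 2.85-fold higher (adjusted p = 0.000778). COQ10B, a coenzyme Q binding protein of mitochondria, was at 11.77, 13.19, 12.42, 12.78 and 11.91 in fasted birds, against 9.48, 9.89, 9.73, 9.31 and 9.62 in fed birds (7.0-fold, adjusted p = 1.21e-05). COQ8A rose 2.88-fold, whereas PDSS1, which makes the isoprenoid tail of coenzyme Q, fell 2.84-fold (adjusted p = 0.00243). PANK1, of coenzyme A synthesis, and BLVRA, a biliverdin reductase, were higher, and UROD, of heme synthesis, and MOCS2, of molybdenum cofactor synthesis, were lower, though PANK1 and UROD lost their calls when 1 bird was left out (adjusted p = 0.0648 without fasted bird 4 for PANK1 and 0.0566 without fasted bird 1 for UROD). In the whole cofactor list 7 of 46 were higher (15.2%, beside 4.93% of all named genes), 3 lower (6.52%, beside 5.77%) and 36 did not pass, and the median difference was -0.01.

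Some sphingolipid enzymes rose. KDSR, in the second step of ceramide synthesis, and UGCG, which adds glucose to ceramide, were 2.28-fold and 2.34-fold higher (adjusted p = 0.00575 and 0.00464). SGPL1, which cleaves sphingosine phosphate and so ends the pathway, was at 11.94, 12.30, 11.99, 12.48 and 11.64 in fasted birds, against 10.79, 10.66, 10.62, 10.65 and 11.10 in fed birds (2.47-fold, adjusted p = 0.000176). CERS6, a ceramide synthase, had a fed mean of 3.14 near the floor and lost its call without fasted bird 1 (adjusted p = 0.0515). Of 27 measured genes 5 were higher (18.5%, beside 4.93% of all named genes), 20 did not pass, and the median difference was -0.02. The 2 that were lower (7.41%, beside 5.77%) were GLTP and GBA2, and both falls were lost when 1 bird was left out (adjusted p = 0.0592 without fasted bird 1 for GLTP and 0.107 without fasted bird 4 for GBA2).

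Enzymes that build glycosaminoglycans, the sulphated sugar chains of the matrix, mostly fell where they changed. In the chain synthesis role 7 of 26 were lower (26.9%, beside 5.77% of all named genes) and 3 higher (11.5%, beside 4.93%), with a median difference of -0.35. B4GALT7, which adds to the linker of the chains, CHPF, which extends chondroitin, and DSE, which makes dermatan, were 1.56-fold, 1.67-fold and 1.83-fold lower. HS6ST2 was 1.93-fold lower (adjusted p = 0.000908), while HS6ST1, which carries out the same heparan sulphation, was 1.82-fold higher (adjusted p = 0.00804).

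Hyaluronan genes split as well. HAS2, a hyaluronan synthase, was at 8.48, 8.43, 8.73, 8.60 and 8.32 in fasted birds, against 9.10, 9.21, 9.46, 9.29 and 9.26 in fed birds (1.68-fold lower, adjusted p = 0.000436). HYAL2, a hyaluronidase, was at 9.37, 9.33, 9.33, 9.89 and 9.87 in fasted birds, against 7.48, 7.31, 7.33, 8.16 and 8.53 in fed birds (3.47-fold higher, adjusted p = 0.00282). Neither overlapped between the groups. The abundant matrix genes DCN and MMP2 differed by -0.02 and 0.10 and did not pass.

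In the list of Polycomb, bromodomain and chromodomain proteins 9 of 54 were higher (16.7%, beside 4.93% of all named genes). Another 2 were lower (3.7%, beside 5.77%), RBBP4 and CHD4, and the median difference was 0.19. KDM6A, ARID5B and PHF2 are counted among the 9, although they belong to none of these families. SUZ12, a core subunit of Polycomb complex 2, was at 10.69, 10.63, 10.65, 10.83 and 10.79 in fasted birds, against 10.21, 10.14, 9.97, 9.03 and 9.32 in fed birds (1.98-fold, adjusted p = 0.00755). Fed birds 4 and 5 were the lowest, and only 1 of the 3 probe sets was called. BRD1 was 1.81-fold and PHF2 1.28-fold higher, and with SUZ12 these were the 3 calls kept in all 15 fits. JARID2, a partner of SUZ12, was 1.69-fold higher and lost its call without fasted bird 4 (adjusted p = 0.055), as did RBBP4 (adjusted p = 0.055), and CHD4 lost its own in 11 of the 15. Of 27 corepressors and coactivators 5 were higher (18.5%, beside 4.93% of all named genes) and 3 lower (11.1%, beside 5.77%). NCOR1, NRIP1 and NAB1 were 1.63-fold, 1.83-fold and 2.43-fold higher (adjusted p = 0.0111, 0.00463 and 3.63e-05). TBL1X, TBL1XR1 and NCOA1 were lower (adjusted p = 0.0269, 0.0176 and 0.0366), and none of these falls was kept in all 15 fits. Of 28 Mediator subunits 1 was higher (3.57%), which was MED13L (2.00-fold, adjusted p = 0.000261).

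Developmental transcription factors moved both ways, with 11 of 98 higher (11.2%, beside 4.93% of all named genes) and 13 lower (13.3%, beside 5.77%). HOPX, an atypical homeodomain protein, was 3.12-fold higher at a level of 15.24 in fasted and 13.60 in fed birds (means, adjusted p = 0.00857), and SNAI2 was 2.40-fold higher (adjusted p = 0.00057). PRRX2, TWIST2, ZNF503 and EN1 were between 2.19-fold and 2.84-fold lower. CITED4, a coactivator, was 2.51-fold lower (adjusted p = 0.000682).

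Receptors and their relays were mixed as well. Among receptor tyrosine kinases and adaptors 8 of 59 were higher (13.6%, beside 4.93% of all named genes) and 6 lower (10.2%, beside 5.77%). Of the 8 rises 3, and of the 6 falls 3, were kept in all 15 fits that left out 1 bird. KSR1, a scaffold of the ERK cascade, rose 3.59-fold (adjusted p = 5.62e-05), and the receptors DDR2 and MST1R fell 1.92-fold and 2.20-fold (adjusted p = 4.36e-05 and 0.000224). Of 50 measured G protein-coupled receptors 7 were higher (14%) and 5 lower (10%), but only 1 of the 7 rises, GPR146, was kept in all 15 fits. Of the 5 falls 3 were kept. NPY4R, a receptor of pancreatic polypeptide, was 3.93-fold lower with some overlap (adjusted p = 0.0109). The adenosine receptor ADORA1, which restrains lipolysis in mammals, was 3.48-fold higher, but lost its call without fasted bird 4 (adjusted p = 0.0582). AGTR1, the angiotensin II receptor, which was not in that list and was chosen after its value was seen, was 4.15-fold higher (adjusted p = 2.42e-05). Among Toll-like receptor, TNF receptor and NF-kB genes 8 of 62 were higher (12.9%) and 1 lower (1.61%), with TLR4 2.43-fold and ZC3H12C, a ribonuclease that ends inflammatory messages, 4.19-fold higher.

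Calcium and transport genes included some of the larger folds. Of 73 measured transporters of monocarboxylates, peptides, ions and water 7 were higher (9.59%, beside 4.93% of all named genes), all kept in the 15 fits, and 1 was lower (1.37%, beside 5.77%). AQP9, a channel for glycerol and water, rose 5.53-fold (adjusted p = 0.000734), SLC15A1, a peptide transporter, 6.09-fold, and SLC16A10, an aromatic amino acid transporter, 2.96-fold. AQP1, the abundant water channel of endothelium, differed by 0.06 and did not pass. Of 74 calcium genes 7 were higher and 7 lower (9.46% each). RCAN1, an inhibitor of calcineurin, was 3.33-fold and the channel TRPV2 2.55-fold higher (adjusted p = 0.00285 and 0.000347). The store channel ITPR1 and the pump ATP2A2 were 2.14-fold and 1.65-fold lower (adjusted p = 0.004 and 0.00311).

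Cytoskeletal genes changed in both directions. Of 73 actin genes 9 were higher (12.3%, beside 4.93% of all named genes) and 5 lower (6.85%, beside 5.77%), with RAPH1 2.73-fold higher (adjusted p = 0.000436) and FERMT2, a kindlin of integrin contacts, 1.79-fold lower (adjusted p = 0.000202), while GSN differed by -0.04. Of 94 small GTPases and regulators 14 were higher (14.9%) and 7 lower (7.45%), and ARHGEF6 was 2.33-fold lower (adjusted p = 0.000202). Of 30 tubulins and partners 5 were lower (16.7%). Abundant TUBA1A, an alpha tubulin, was 1.67-fold lower (adjusted p = 0.0197), with a call lost without fasted bird 4 (adjusted p = 0.0557), and TUBB6 and TUBG1 were 1.57-fold and 1.39-fold lower with calls lost in 11 and 10 of the 15 fits (adjusted p = 0.0933 and 0.0853 without fasted bird 1). Both DYNLL2 and DYL1, light chains of dynein, were lower: DYNLL2 was at 11.03, 11.10, 10.78, 10.73 and 10.67 in fasted birds, against 12.22, 11.83, 12.26, 12.28 and 12.37 in fed birds (2.52-fold, adjusted p = 1.3e-05), and DYL1 was 1.57-fold lower (adjusted p = 0.00161). KIF21A, a kinesin, and NDEL1, a dynein regulator, were 2.64-fold and 2.54-fold higher (adjusted p = 0.00114 and 0.000501).

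Among genes of RNA handling, splicing factors had 0 of 117 higher and 5 lower (4.27%, beside 5.77% of all named genes), of which SRPK2, a kinase of SR proteins, had the largest fall (2.03-fold, adjusted p = 0.000719), and none of 52 snRNP genes was called. Ribosome biogenesis and RNA polymerase genes had 3 of 103 higher (2.91%, beside 4.93%) and 6 lower (5.83%), and NPM1 differed by -0.09. In the list of mRNA decay, 3′ processing and Integrator 8 of 82 were higher (9.76%) and 4 lower (4.88%). Integrator subunits split: INTS6, INTS6L and INTS12 were 1.87-fold, 2.01-fold and 1.33-fold higher, and INTS8 and INTS10 were 1.31-fold and 1.36-fold lower. BTG1 and BTG2, which recruit the deadenylase that shortens mRNA tails, were 1.37-fold and 1.73-fold higher (adjusted p = 0.0133 and 0.00168). RING ligases and deubiquitinases had 12 of 122 higher (9.84%) and 5 lower (4.1%), with USP44 4.40-fold and RNF19A 2.98-fold higher (adjusted p = 0.000823 and 0.000994).

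Of the remaining lists, N-glycosylation and dolichol genes had 3 of 63 higher (4.76%, beside 4.93% of all named genes) and 5 lower (7.94%, beside 5.77%), with a median difference of -0.21. Hedgehog and Notch genes had 4 of 33 higher (12.1%) and 3 lower (9.09%), and eicosanoid and endocannabinoid genes 3 of 30 higher and 3 lower (10% each). HPGD, which breaks down prostaglandins, was 2.50-fold higher and FAAH, which breaks down anandamide, 1.80-fold lower (adjusted p = 0.00407 and 0.0148). Oxygen-sensing genes had 3 of 29 higher (10.3%) and 2 lower (6.9%). BNIP3, a mitophagy receptor that hypoxia induces, was at 12.84, 12.80, 13.06, 13.06 and 12.80 in fasted birds, against 11.69, 11.58, 11.55, 11.92 and 12.12 in fed birds (2.21-fold, adjusted p = 4.47e-05). PGK2, the symbol that holds the chicken phosphoglycerate kinase gene, also a hypoxia target, was 1.53-fold lower (adjusted p = 0.00552).

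**Figure D4:**
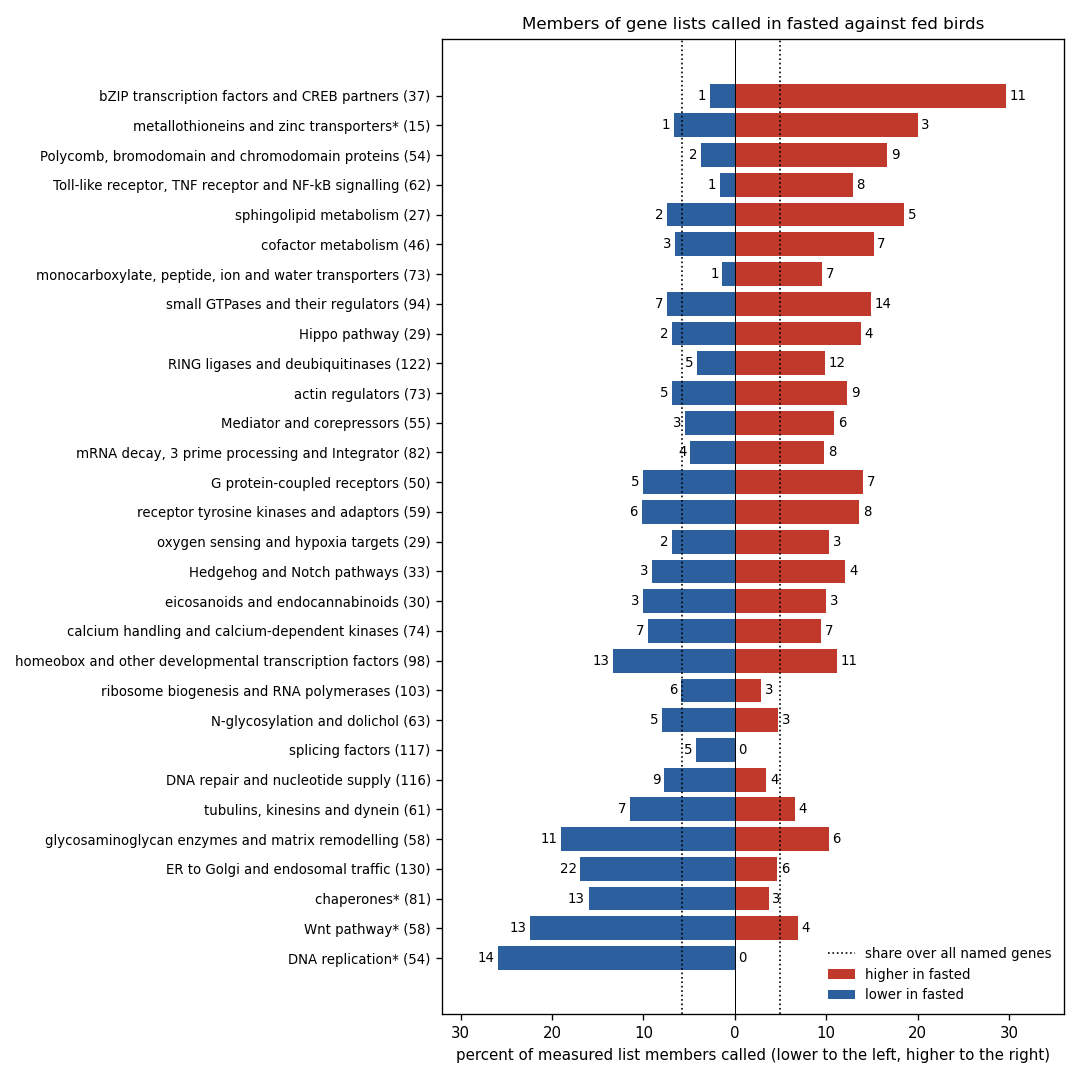
Percent of the measured members of each list that were called higher (red, to the right) or lower (blue, to the left) in fasted against fed birds, with the number of genes at each bar and the number measured in parentheses. Dotted lines are the shares over all 9243 named genes, an asterisk marks lists written after values were seen, and DNA replication reaches farthest to the left and bZIP and CREB partners farthest to the right.

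Called genes lay next to each other in the RefSeq gene order in 120 of 9202 neighbouring pairs of measured genes, or 1.3%. Of single named genes 4.93% were higher and 5.77% lower. The share of pairs to be met if position did not matter was not computed, so no clustering is read from this count. In 85 of the 120 pairs both genes changed in 1 direction. The number to be met if position did not matter was not computed for this count either, so nothing is read from it. Without fasted bird 4 there were 63 pairs with both called. Among them were MT4 with MT3, NARF with CYBC1, and the run of SNAI2, C8orf22, PCMTD1 and RB1CC1, all higher in fasted birds.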

How the data were processed

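Total RNA of abdominal fat was hybridised to the Affymetrix Chicken Genome Array, 1 array per bird. Per the labels, the authors normalized the scans with GCRMA in R 2.9.0, and the deposited values are log2 levels of 38535 probe sets on 15 arrays. Intensity over background is not kept in these values, so the number of birds sets the precision. The 96 control probe sets were removed, as were 19827 with levels under 3 on 5 or more arrays. limma 3.58.1 in R 4.3.3 fitted the 3 groups, and fasted minus fed was tested with Benjamini-Hochberg adjustment over 18612 probe sets at 0.05. Per the labels, arrays of a group are biological replicates. Each array had 1 deposited column, and depth does not apply.

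Symbols came from GEO's platform annotation, with RefSeq (GRCg7b) used for synonyms and gene order only: of all non-control probe sets 27168 had 1 symbol, 177 several and 11094 none. A gene in a list was read from its brightest probe set, and 35 listed genes were matched through a synonym. Named genes were the 15 largest rises and falls outside the known lists without overlap between groups, by each gene's largest called change, and in each list the 4 largest calls each way and 2 abundant members that did not pass; all others were chosen after their values were seen. Members and lists were chosen with earlier results of these data known. A group mean under 4 is near the floor. The fit was first tested on simulated data with known changes. The alternatives were the filter, scaling, moderation, weights, a fold threshold, a replicate block and leaving out birds.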

Additional observations from a re-analysis of the deposited data

Results flagged for a closer look

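Among 35 genes examined bird by bird, 6 of 70 groups of 5 birds held 1 bird whose gap to the next was over 0.71 of the group's whole range. Chance alone marks about 1 group in 20 in this way. In 5 of the 6 the bird was fasted bird 2. RASD1 was 4.17 in this bird, against 6.19 to 6.96 in the other fasted birds, and RTN4R was 2.21, against 3.94 to 4.57, both farther from the fed birds. FZD9 was 8.40, also farther from the fed birds, whose range was 11.50 to 12. MCM5 at 8.18 and HSPA5 at 14.13 lay on the side of the fed birds. Without fasted bird 2, 843 probe sets were higher and 710 lower. In fed bird 2, DYNLL2 was 11.83, on the side of the fasted birds, whose highest value was 11.10.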

How the results depend on the processing

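Of 374 probe sets of genes taken by the naming rule or chosen later, 317 were called, and none of these changed direction under any alternative run. Of the 317 calls 175 held in all settings run other than the fold threshold. The count of higher probe sets, 921 as reported, became 551 with only the 10 arrays in the fit and 325 when tested against a fold of 1.2. With only 1 probe set per named gene in the fit 476 were higher, beside 456 named genes as reported. The count of lower probe sets, 873 as reported, became 409 with the 10 arrays, 153 against the fold, and 563 without a filter on low values. Members of the 26 lists called higher, 165 with those that are also in the known lists, became 105 with the 10 arrays and 66 against the fold, and those called lower, 138 counted in the same way, became 66 and 31. Neighbouring pairs both called, 120 as reported, became 48 with the 10 arrays, 19 against the fold, 61 without a filter and 63 with 3 comparisons adjusted together. Leaving out 1 bird gave 618 to 890 higher and 562 to 942 lower probe sets, 112 to 157 higher and 92 to 140 lower list members, and 63 to 112 pairs. All 5 minima came without fasted bird 4. With a replicate block, 815 probe sets were higher and 722 lower. Whether birds with the same number form pairs was not tested. Their deviations correlated between -0.262 and 0.382. Fasted birds 1, 3 and 5 correlated best with the fed bird of the same number, and fasted birds 2 and 4 with fed birds 4 and 5. The fits on fewer arrays or more tests have less power by construction, and for the other changes the cause was not tested. The median SE of a difference was 0.18 on the log2 scale, so small changes were not detectable with these birds, and levels near the floor hold only a bound.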

Other observations

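PHLDA2, an imprinted gene of placental growth in mammals, was 3.58-fold higher in fasted birds (adjusted p = 0.000552 from limma), and BMP2, a ligand of the BMP pathway, was 2.40-fold higher (adjusted p = 0.000374). PMEPA1, a target and inhibitor of TGF-beta signalling, and FGFRL1, a receptor that lacks the kinase part, were 2.75-fold and 2.40-fold lower (adjusted p = 0.00303 and 0.00106). KCNQ1, a potassium channel, was 2.05-fold higher (adjusted p = 0.00769), and it is the neighbour of PHLDA2 in the gene order. These genes were chosen after their values were seen.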
